A study of Mus musculus with 6 samples.

Results

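The BCL2 family genes described here are Mcl1, Bcl2, Bcl2l1 and Bcl2l2, which protect cells from death, Bak1, which carries death out, and Bid, Bad, Bcl2l11, Bmf and Bik, which trigger it. Each was taken as the locus of that symbol in the deposited table, the longest where a symbol was listed more than once, giving 10 of 53445 loci. Their transcripts were measured by poly(A) RNA-Seq in LSK cells, the Lin-Sca+Kit+ fraction of bone marrow that holds hematopoietic stem cells and multipotent progenitors. The libraries came from 3 OgaVav-Cre and 3 wildtype mice, all female, C57BL/6 and about 12 weeks old, and 1 library stands for 1 mouse. OgaVav-Cre mice carry floxed alleles of Oga and the Vav-iCre transgene. Oga encodes O-GlcNAcase, which removes the sugar O-GlcNAc from proteins, and the Vav promoter drives Cre throughout the blood lineages rather than in stem cells alone. The libraries describe a sorted mixture, in which fewer cells of a type and less RNA per cell cannot be told apart.

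Proteins of the BCL2 family decide whether the outer membrane of the mitochondrion stays intact. BAK and BAX open pores in it, which releases cytochrome c and starts the caspases. The survival proteins hold BAK, BAX and the BH3-only proteins in check, and the BH3-only proteins, which respond to stress or to loss of growth factors, relieve that block or activate the pore formers. The survival of hematopoietic stem cells is known to need MCL1.

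What the members share is the BH3 motif, a short helix by which they bind each other. The coding bases of this stretch are shown because they are the feature that joins all 10 genes. They were read 5′ to 3′ on the coding strand from the mm9 genome (NCBIM37 annotation), and each lies within a single coding exon. Capitals mark, in order, the codon of the conserved leucine (methionine in Bcl2l2), the codon of a small residue (glycine, but serine in Bad and alanine in Bmf) and the codon of the aspartate that follows it.
Mcl1: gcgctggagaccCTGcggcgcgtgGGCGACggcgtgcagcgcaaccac
Bcl2: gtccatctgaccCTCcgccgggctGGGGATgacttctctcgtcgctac
Bcl2l1: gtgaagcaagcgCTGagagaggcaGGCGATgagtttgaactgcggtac
Bcl2l2: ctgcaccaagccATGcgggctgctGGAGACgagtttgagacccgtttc
Bak1: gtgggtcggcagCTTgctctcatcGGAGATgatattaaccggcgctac
Bid: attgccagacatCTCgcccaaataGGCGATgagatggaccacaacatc
Bad: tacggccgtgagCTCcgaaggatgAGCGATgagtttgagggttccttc
Bcl2l11: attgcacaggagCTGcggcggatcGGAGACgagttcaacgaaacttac
Bmf: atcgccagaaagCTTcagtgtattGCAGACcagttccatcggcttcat
Bik: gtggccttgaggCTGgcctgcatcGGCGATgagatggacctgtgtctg
The stretches lie at chr3:95463347-95463394 (plus strand, Mcl1), chr1:108609143-108609190 (minus, Bcl2), chr2:152655424-152655471 (minus, Bcl2l1), chr14:55503342-55503389 (plus, Bcl2l2), chr17:27159467-27159514 (minus, Bak1), chr6:120847298-120847345 (minus, Bid), chr19:7025270-7025317 (plus, Bad), chr2:127972874-127972921 (plus, Bcl2l11), chr2:118370827-118370874 (minus, Bmf) and chr15:83373502-83373549 (plus, Bik). The pattern searched was leucine or methionine, 3 free positions, glycine, alanine or serine, aspartate, then 1 of aspartate, glutamate, glycine or glutamine, then 1 of phenylalanine, isoleucine, methionine or valine. It was written to cover these members, so that all 10 hold it is no result, and 482 of 22594 annotated genes with a coding transcript (2.13%) hold it too.

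Libraries held 25190298 to 27064389 counted reads in OgaVav-Cre and 19318056 to 21684561 in wildtype cells. Reads were scaled to CPM, a read count relative to library size after edgeR's TMM normalization, in which 3 reads, taken as the limit of detection, equal 0.109 to 0.156 CPM. Oga, listed under its former symbol Mgea5, had 104, 109 and 110 reads (OgaVav-Cre) against 3164, 2970 and 2736 (wildtype), 3.09% of the wildtype CPM. The summed level of 11 markers of LSK cells and early progenitors ran from 1271 to 2558 CPM (OgaVav-Cre) and from 1642 to 2789 CPM (wildtype), and each of these markers was above the limit of detection in at least 1 library. OgaVav-Cre replicate 3 stood apart, with the lowest sum of these markers and the highest sums of the 8 B cell markers (1255 CPM against 243 to 867 in the others), the 10 granulocyte and monocyte markers (2842 against 625 to 1739) and the 8 erythroid markers (2585 against 325 to 872). It was also highest for T and NK cell (177 against 60.1 to 118), megakaryocyte (81.0 against 42.0 to 77.4) and stromal and endothelial markers (196 against 117.5 to 149). The 7 plasma cell markers found in the table summed to between 1529 and 11148 CPM (OgaVav-Cre) and between 1633 and 7631 CPM (wildtype). No marker in the 8 lists changed between the genotypes, and the part these cells have in the values below was not tested. A locus is called changed where edgeR's quasi-likelihood test gave a p below 0.05 after Benjamini-Hochberg adjustment over the 22032 loci tested and the log2 fold change lay beyond -1 or 1, which are the cutoffs of the study.

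Of the 10 members, 9 had enough reads to be tested and 0 changed between OgaVav-Cre and wildtype LSK cells. Among all loci tested, 7 changed (0.0318%), 1 higher and 6 lower in OgaVav-Cre (0 and 6 when scaled by library totals alone). At an unadjusted p below 0.05, 0 of 9 members passed, where 10.6% of all loci did. With DESeq2, 0 members changed, and 0.32% of the 36514 loci it fitted were called. Its own filter left some of these loci without an adjusted p. The 95% intervals of the log2 fold changes of the 9 members lay between -0.87 and 0.86, inside the cutoffs of -1 and 1. The tenth member, Bik, was near the limit of detection.

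Transcript levels of the members, given per kb of locus so that genes can be compared, spanned 206-fold between the means of the 6 libraries. Mcl1 was highest at 95.1 CPM per kb (range 77.7 to 114), 6.08 times the next member. Bcl2 (15.6, range 12.4 to 17.9), Bak1 (15.1, range 11.4 to 17.2) and Bid (12.5, range 11.6 to 13.8) followed, with ranges that overlapped from each to the next. Within a library, Bcl2 was above Bak1 in 5 of 6, Bak1 above Bid in 5 of 6 and Bcl2 above Bid in 6 of 6. Bad (6.19, range 4.08 to 7.18), Bcl2l1 (5.98, range 4.45 to 7.10), Bcl2l11 (4.78, range 3.74 to 5.59), Bcl2l2 (4.29, range 3.66 to 4.81) and Bmf (3.12, range 1.81 to 4.94) formed a lower group, again with ranges that overlapped from each to the next. Within a library, Bcl2l1 was above Bcl2l11 in 6 of 6, whereas Bad was above Bcl2l1 in 4, Bcl2l11 above Bcl2l2 in 4 and Bcl2l2 above Bmf in 5. Bik was lowest at 0.461 CPM per kb (range 0.252 to 0.851). Ranges did not overlap at 3 steps of this order, from Mcl1 to Bcl2, from Bid to Bad and from Bmf to Bik.

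**Figure D1:**
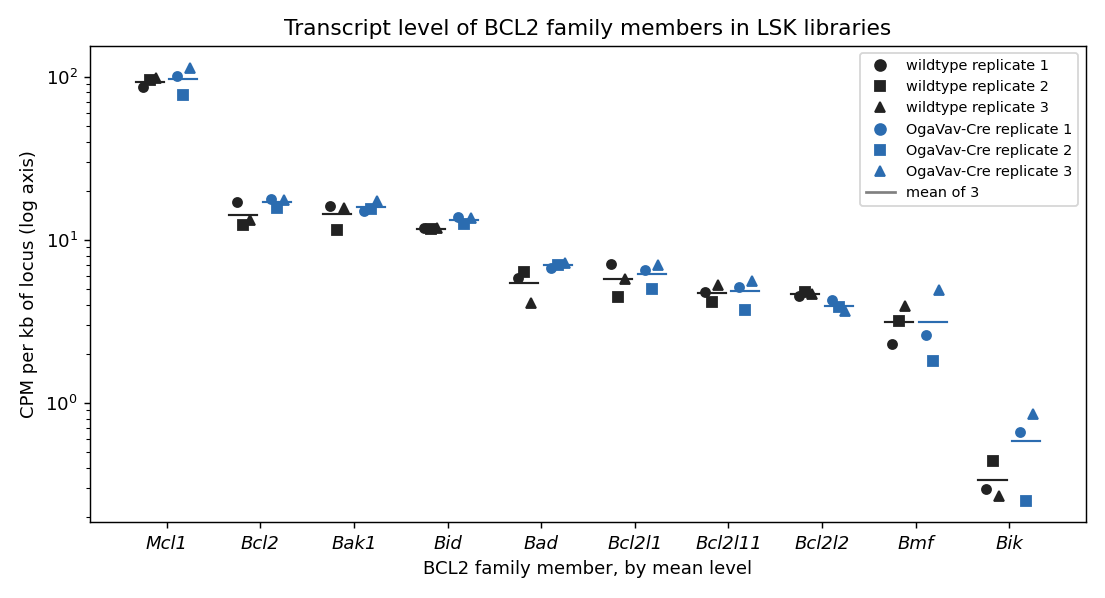
Transcript level of the 10 members in CPM per kb of locus (log axis) in each library, wildtype in black and OgaVav-Cre in blue, with a line at the mean of 3. Mcl1 lies between 77.7 and 114 in every library, Bik between 0.252 and 0.851, and wildtype and OgaVav-Cre points overlap for 7 of the 10.

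Mcl1, a survival protein of short half-life that holds BAK and BIM, lies on chromosome 3 (plus strand, 95462643 to 95467102). In the order of replicates 1, 2 and 3, which is kept below, it had 7925, 6849 and 10867 reads (OgaVav-Cre) against 6396, 6399 and 8040 (wildtype). Scaled, these were 351, 271 and 396 CPM against 299.7, 332 and 340.1 CPM. OgaVav-Cre held both the lowest and the highest library, so the genotypes overlapped. The means were 340 ± 63.5 CPM against 324 ± 21.4 CPM (SD, n = 3 each), a log2 fold change of 0.068 (standard error 0.165, 95% interval -0.31 to 0.45, edgeR adjusted p = 0.900). The sign of this value turned in several alternative settings and without OgaVav-Cre replicate 3 (-0.055).

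Bcl2, the founding member of the family, which guards lymphocytes and other blood cells against death, spans chromosome 1 from 108434755 to 108610867 on the minus strand. OgaVav-Cre libraries held 164, 144 and 161 CPM (3695, 3634 and 4403 reads) and wildtype libraries 157, 113 and 122 CPM (3344, 2186 and 2884 reads). Wildtype replicate 1 lay among the OgaVav-Cre libraries, whereas the other two wildtype libraries were below all of them. OgaVav-Cre averaged 156 ± 10.8 CPM and wildtype 131 ± 22.9 CPM (SD, n = 3 each), and the log2 fold change of 0.26 (standard error 0.152, interval -0.096 to 0.61) did not pass (edgeR adjusted p = 0.564). Without wildtype replicate 1 it was 0.41 (edgeR adjusted p = 0.275), the lowest adjusted p of any member in any setting tried.

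Bcl2l1 encodes BCL-XL, the survival protein on which erythroid cells and platelets depend, and lies on chromosome 2 (minus strand, 152593052 to 152657464). OgaVav-Cre libraries had 31.1, 23.7 and 33.2 CPM (701, 599 and 911 reads), set against 33.6, 21.1 and 27.2 CPM (717, 406 and 643 reads) in wildtype. The highest and the lowest library were both wildtype. A log2 fold change of 0.10 (standard error 0.211, interval -0.38 to 0.59, edgeR adjusted p = 0.877) was within the spread of the replicates, and without wildtype replicate 2 it was -0.043.

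Bcl2l2, which encodes the survival protein BCL-W, lies on chromosome 14 (plus strand, 55502232 to 55507935). It was the only tested member whose OgaVav-Cre libraries were all below wildtype, at 19.95, 18.1 and 17.1 CPM (450, 457 and 470 reads) against 21.1, 22.5 and 21.8 CPM (450, 434 and 515 reads). The means were 18.4 ± 1.43 and 21.8 ± 0.713 CPM (SD, n = 3 each). The log2 fold change was -0.24 (standard error 0.137, interval -0.56 to 0.074), which did not pass (edgeR adjusted p = 0.548). The locus lies inside a listed read-through locus of Bcl2l2 and Pabpn1, so reads could have been assigned to either. That locus, with 2735 to 3559 reads per library, had a log2 fold change of -0.20 (edgeR adjusted p = 0.602).

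Bak1 encodes BAK, the effector that opens the mitochondrial membrane, and lies on chromosome 17 (minus strand, 27156755 to 27165954). OgaVav-Cre libraries had 36.0, 37.3 and 41.4 CPM (812, 943 and 1134 reads), and wildtype libraries 38.7, 27.5 and 37.5 CPM (826, 531 and 887 reads). Only wildtype replicate 2 was clearly lower than the rest, and the genotypes overlapped. The log2 fold change was 0.14 (standard error 0.162, interval -0.23 to 0.52, edgeR adjusted p = 0.761). Ggnbp1, on the opposite strand, spans the whole of Bak1, all 2407 exonic bases of which lie within that span, introns of Ggnbp1 included. How many of these bases lie in exons of Ggnbp1 was not counted. The sources used here do not state that counting used strand, so reads may not be told apart where exons of the 2 loci coincide.

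Bid, which caspase-8 cleaves to carry death-receptor signals to the mitochondrion, lies on chromosome 6 (minus strand, 120841948 to 120866871). After TMM scaling, Bid was the most even of the members in wildtype cells, at 41.8, 41.1 and 41.7 CPM (892, 792 and 986 reads). Each OgaVav-Cre library was above these at 48.9, 44.5 and 47.9 CPM (1102, 1124 and 1314 reads). The means were 47.1 ± 2.31 against 41.5 ± 0.390 CPM (SD, n = 3 each). Although the libraries did not overlap on this scale, the log2 fold change of 0.18 (standard error 0.108, interval -0.070 to 0.43) did not pass (edgeR adjusted p = 0.568). Scaled by library totals alone, Bid had 43.7, 43.1 and 48.6 CPM (OgaVav-Cre) against 43.3, 41.0 and 45.5 CPM (wildtype), which overlapped. The end of Bid overlaps that of Bcl2l13 on the opposite strand by 913 bases.

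Bad, a BH3-only protein that growth factor kinases silence by phosphorylation, lies on chromosome 19 (plus strand, 7016345 to 7026388). Its levels of 13.5, 14.0 and 14.4 CPM in OgaVav-Cre libraries (305, 355 and 396 reads) were all above the 11.8, 12.8 and 8.21 CPM of wildtype libraries (251, 247 and 194 reads). Wildtype replicate 3 was far below the other two. The means were 14.0 ± 0.463 and 10.9 ± 2.41 CPM (SD, n = 3 each), and the log2 fold change of 0.36 was the largest of the 9 members (standard error 0.203, interval -0.11 to 0.83, edgeR adjusted p = 0.550). Without wildtype replicate 3 it was 0.19 (edgeR adjusted p = 0.888). Scaled by library totals alone, Bad had 12.1, 13.6 and 14.6 CPM (OgaVav-Cre) against 12.2, 12.8 and 8.95 CPM (wildtype), which overlapped. A second locus of this name, on the opposite strand from 7024925 to 7026147, lies inside the first and holds the BH3 stretch of Bad. It had a log2 fold change of 0.34 (edgeR adjusted p = 0.628). Its span covers 882 exonic bases of the first locus, so the 2 may share reads and may not be independent measurements. Bad also overlaps Gpr137 on the opposite strand by 596 bases.

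Bcl2l11 encodes BIM, which kills blood cells deprived of cytokines, and lies on chromosome 2 (plus strand, 127951774 to 127988283). OgaVav-Cre libraries held 42.8, 30.9 and 46.3 CPM (965, 782 and 1269 reads) and wildtype libraries 39.9, 34.3 and 43.5 CPM (851, 662 and 1028 reads). The lowest and the highest were both OgaVav-Cre. The log2 fold change was 0.028 (standard error 0.180, interval -0.39 to 0.45, edgeR adjusted p = 0.967), and its sign turned in several settings.

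Bmf, a BH3-only protein known to respond to loss of attachment, lies on chromosome 2 (minus strand, 118354493 to 118375423). It varied most between mice of the members tested, with 13.7, 9.50 and 25.9 CPM (309, 240 and 711 reads) in OgaVav-Cre against 12.0, 16.7 and 20.7 CPM (256, 321 and 489 reads) in wildtype. The group means nearly coincided at 16.4 ± 8.54 and 16.4 ± 4.35 CPM (SD, n = 3 each). The interval of the log2 fold change of -0.0051 ran from -0.87 to 0.86 (edgeR adjusted p = 0.997), and the value was -0.50 without OgaVav-Cre replicate 3 and 0.27 without OgaVav-Cre replicate 2. The biological coefficient of variation of Bmf, the spread between mice beyond counting error, was 0.344, above that of 92.3% of the 3059 loci of like abundance (median 0.216). The 6 libraries ranked the same by Bmf as by the summed granulocyte and monocyte markers, highest in OgaVav-Cre replicate 3 and lowest in OgaVav-Cre replicate 2. The other 7 marker lists ranked them differently. This match was picked out after the values of 10 members and 8 lists were seen. How many of all loci rank the libraries so was not counted. The Lin- sort is meant to remove granulocytes and monocytes, and their part in the level of Bmf was not tested.

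Bik, a BH3-only protein of the endoplasmic reticulum, lies on chromosome 15 (plus strand, 83357292 to 83375065) with 14, 6 and 22 reads (OgaVav-Cre) against 6, 8 and 6 (wildtype). OgaVav-Cre replicates 1 and 3 were above all wildtype libraries, and replicate 2 was not. The Wilson 95% interval for 22 reads was 0.537 to 1.23 CPM of the library total and that for 6 reads in OgaVav-Cre replicate 2 was 0.105 to 0.502, which cover counting error only. An exact permutation test gave p = 0.4 (two-sided), and 3 against 3 mice cannot go below 0.1. With no filter on low counts, edgeR gave a log2 fold change of 0.81 (adjusted p = 0.737), and without OgaVav-Cre replicate 2 it was 1.17 (edgeR adjusted p = 0.671).

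**Figure D2:**
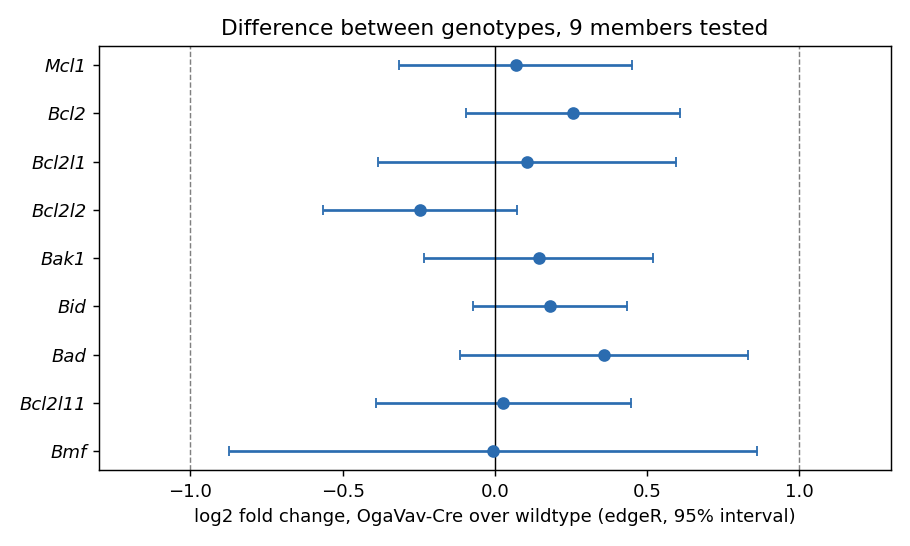
Log2 fold change of OgaVav-Cre over wildtype for the 9 members tested (points) with 95% intervals from edgeR (bars) and dashed lines at -1 and 1. Every interval crosses 0 and stays inside the dashed lines, from -0.87 to 0.86 for Bmf, the widest.

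Of the 9 members tested, 7 had a log2 fold change above 0 (77.8%), against 50.5% of all loci, with a median of 0.10 beside 0.0041. Scaled by library totals alone, which moved the median of all loci to -0.11, 4 members were above 0 and their median was -0.018. After TMM scaling, libraries of the genotypes did not overlap for 3 of 9 members, Bid and Bad above and Bcl2l2 below. Of all loci, 17.5% did not overlap (7.5% above, 9.97% below). Scaled by library totals alone, Bid and Bad overlapped and Bcl2l2 did not, and the share of all loci was not counted. With 9 members these counts are a description. Without wildtype replicate 2 the median of the members was 0.011, and without OgaVav-Cre replicate 2 it was 0.22.

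OgaVav-Cre replicates 2 and 3 differed at many members. Among the OgaVav-Cre libraries, replicate 3 was highest for 7 of 10 members (Mcl1, Bcl2l1, Bak1, Bad, Bcl2l11, Bmf and Bik), and replicate 2 was lowest for 7 and highest for 0. No wildtype library led as often, with 4, 3 and 3 members highest in replicates 1, 2 and 3. The share of all loci that rank the libraries so was not counted, so these counts show nothing particular to the members. Replicate 3 is also the library with the highest summed markers of B, T and NK, granulocytic, erythroid, megakaryocytic and stromal cells, and the part of these cells was not tested.

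**Figure D3:**
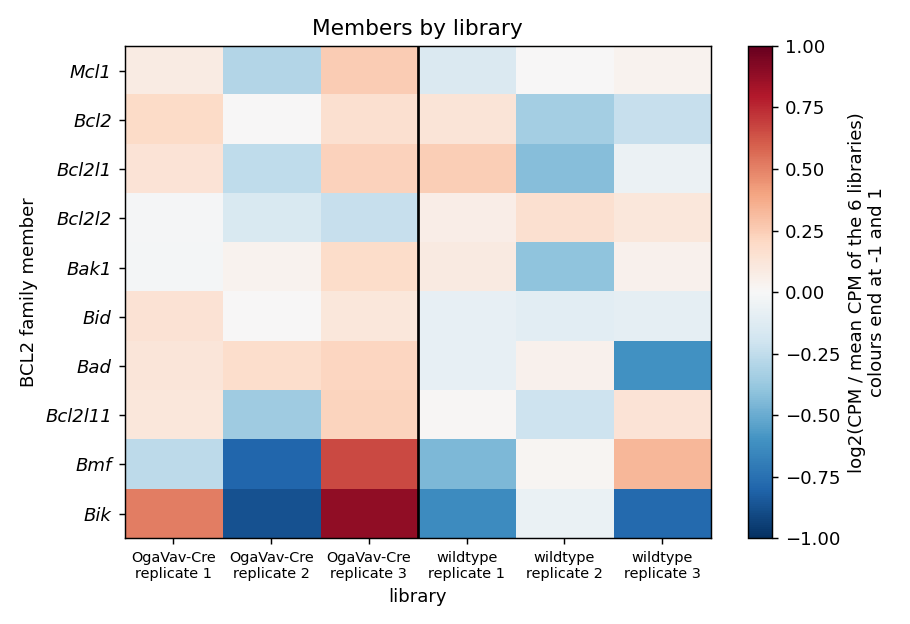
Level of each member in each library as log2 of its CPM over its mean in the 6 libraries, red above and blue below, OgaVav-Cre left of the line. Bmf and Bik are blue in OgaVav-Cre replicate 2 and red in replicate 3, and the other members stay paler in those libraries.

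Summed by role per kb, the 4 survival genes stood at 124 ± 20.3 CPM per kb in OgaVav-Cre and 118 ± 3.36 in wildtype cells, and the 6 genes that promote death at 44.6 ± 4.27 and 39.7 ± 2.22 (SD, n = 3 each). The ratio of the former to the latter was 2.95, 2.51 and 2.88 (OgaVav-Cre) against 2.79, 3.14 and 2.96 (wildtype). These overlapped, with means of 2.78 ± 0.239 and 2.97 ± 0.178. Mcl1 alone made up 54.3 to 61.8% of the sum of all 10. Leaving Mcl1 out, the ratio was 0.609 ± 0.0412 in OgaVav-Cre and 0.620 ± 0.0676 in wildtype cells, also overlapping. Within the 5 BH3-only genes Bid took 46.4% ± 3.84 and 46.2% ± 1.04 of the sum. These ratios are of transcripts, not of proteins, and cover the 10 members only. Bax, Bbc3 and Pmaip1, which also promote death, are not members and are left out. Bax, at 14.6 (OgaVav-Cre) and 14.9 CPM per kb (wildtype), would lower the ratio if counted.

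In 4 further lists of genes of the pathway, 0 of the genes tested changed. Of 17 other BCL2 family genes 13 were tested, 1 had an unadjusted p below 0.05 upward (4.38% of all loci) and 1 downward (6.27%), and the median log2 fold change was -0.17. Bok, a pore former kept low by degradation, had 5.81, 8.43 and 10.2 CPM in OgaVav-Cre against 5.86, 2.13 and 4.82 CPM in wildtype (log2 fold change 0.93, edgeR adjusted p = 0.468), overlapping by 1 library. Bcl2l14 had 1.77, 1.66 and 1.90 CPM against 2.16, 3.22 and 3.47 CPM (-0.73, edgeR adjusted p = 0.467) and did not overlap. Bax, the other main effector beside Bak1, stood at 14.6 ± 1.31 and 14.9 ± 1.34 CPM per kb (log2 fold change -0.026, edgeR adjusted p = 0.962), close to the level of Bak1. The p53 targets Bbc3 (PUMA) and Pmaip1 (NOXA) had log2 fold changes of 0.17 (edgeR adjusted p = 0.886) and 0.53 (edgeR adjusted p = 0.635). The values for the mitophagy receptors Bnip3 and Bnip3l were -0.17 and -0.19, and for Bcl2l12, Bcl2l13 and Bcl2l15 they were -0.067, 0.049 and -0.75. The loci listed as Bcl2a1a, Bcl2a1b and Bcl2a1d, copies of a survival gene, had -0.56, -0.52 and -0.48. These are uncertain, since the copies are near-identical in sequence, and the loci of Bcl2a1b and Bcl2a1d cover nearly the same stretch of chromosome 9 with nearly the same reads (271 and 265 in all), so that they stand for 1 measurement among the 13. Hrk and Bcl2l10 had 0 reads in all 6 libraries, which allows up to 0.156 CPM in the least deeply sequenced library, and Bcl2a1c and Bnipl had 1 read each in all.

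Of 20 apoptosome and caspase genes all were tested and 0 passed an unadjusted p of 0.05 in either direction (median 0.049). The 3 with the smallest p were Vdac2 (log2 fold change 0.30, edgeR adjusted p = 0.485) and Vdac1 (0.26, edgeR adjusted p = 0.515), channels of the outer mitochondrial membrane, and Fadd (0.33, edgeR adjusted p = 0.595), the adaptor of death receptors. Of 8 inhibitor of apoptosis genes 7 were tested, with 0 upward (4.38% of all loci) and 1 downward (6.27% of all loci) at an unadjusted p below 0.05 (median -0.16). Naip5 had 32.2, 36.2 and 36.3 CPM in OgaVav-Cre against 39.4, 63.3 and 54.7 CPM in wildtype, which did not overlap (-0.59, edgeR adjusted p = 0.412), and Naip genes are near-identical to one another in part. Birc2, encoding the ubiquitin ligase cIAP1, had -0.27 (edgeR adjusted p = 0.476) and Birc6 -0.19 (edgeR adjusted p = 0.681).

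Regulators of the family were tested for all 21 genes listed, of which 1 was upward (4.38% of all loci) and 3 were downward (6.27% of all loci) at an unadjusted p below 0.05 (median -0.052). Pim1, a kinase induced by cytokines that phosphorylates BAD, had 358, 289.7 and 207 CPM in OgaVav-Cre against 401, 462 and 515 CPM in wildtype. The genotypes did not overlap, with a log2 fold change of -0.69 (interval -1.18 to -0.20, edgeR adjusted p = 0.412). Myb, a transcription factor of progenitors for which Bcl2 is a known target, had 428, 405 and 353 CPM against 550.1, 509 and 497 CPM, also without overlap (-0.39, edgeR adjusted p = 0.416). Dynll2, the dynein light chain that tethers BMF, was above wildtype in each OgaVav-Cre library (0.31, edgeR adjusted p = 0.447). None of these passed after adjustment over all loci.

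**Figure D4:**
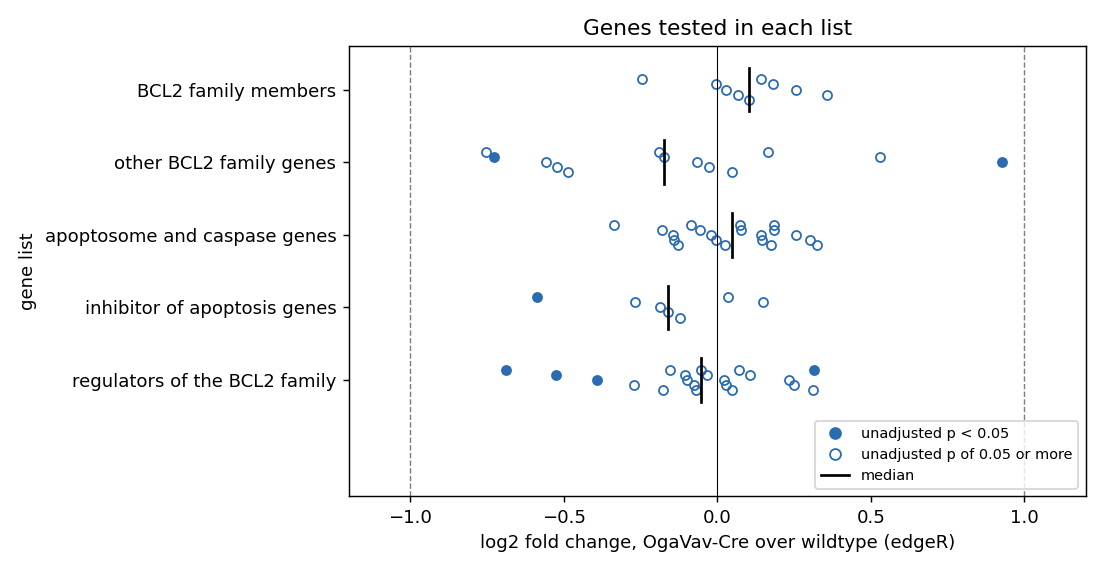
Log2 fold change of OgaVav-Cre over wildtype for each tested gene of the 5 lists (points; filled where the unadjusted p is below 0.05) with the median of each list (bar) and dashed lines at -1 and 1. No point lies beyond the dashed lines, and the filled points are Bok, Bcl2l14, Naip5, Pim1, Pim2, Myb and Dynll2.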

How the data were processed

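LSK cells were sorted from bone marrow, and poly(A) libraries were sequenced as single-end 50 bp reads. The submitters' processing notes name CASAVA 1.8.2 and mm9. The authors aligned reads to mm9 and summarized them with Genomatix; the aligner, the annotation and the strand setting are not given in the sources used here. The deposited table holds raw counts per locus and library, which were tested, and RPKM made by the authors, used as an alternative, with the length of each locus. A further 6 per-library columns of normalized expression, and the authors' own fold changes and p-values, were not used.

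Counts were analyzed with edgeR 4.0.16 in R 4.3.3 (TMM, filterByExpr, glmQLFit, glmQLFTest, genotype as the only term). CPM per kb used the listed locus length. The alternatives were RLE factors, library totals alone, immunoglobulin loci left out, no filter, at least 10 reads in every library, robust dispersion, a replicate block, DESeq2 1.42.0, limma-voom (limma 3.58.1), the RPKM with a pseudocount of 0.1 or 1, the second Bad locus and each library left out. The edgeR fit was tested on simulated data with the same spread at every locus and planted changes larger than those of the members. That test therefore does not cover the estimates or intervals of the members. The other tools were not tested on simulated data. Library totals are given above, and counting intervals cover counting error only.

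Genes were named by rule: the members, loci that overlap them, other BCL2 family genes, the 3 genes with the smallest p in each further list, and Oga. Pim2, in a figure legend, was chosen after its values were seen. The members and lists were chosen with earlier results of these data known. Motif positions came from GENCODE on NCBIM37, in which 97.3% of 30860 loci with an annotated symbol overlap that gene. No pair of libraries of a genotype agreed within sampling noise. Whether mice were littermates is not stated in the labels.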

Additional observations from a re-analysis of the deposited data

How the results depend on the processing

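The intervals of the tested members follow mainly from the spread between mice, and Bik, with 6 to 22 reads per library, is limited by counting as well. The number of members changed was 0 in all 17 alternatives, as was the number in each of the 4 other lists, and Oga stayed between -5.13 and -4.93 with a library left out. The number of loci changed, 7, was 21 with no filter on low counts (4 higher, 17 lower). It was 4 with at least 10 reads in every library and 4 with the RPKM and a pseudocount of 1. With DESeq2 it was 117 (35 higher, 82 lower, 0.32% of those fitted), and with a library left out 3 to 9. The median log2 fold change of the members, 0.10, was -0.018 with library totals alone and 0.0069 to 0.22 with a library left out, lowest without OgaVav-Cre replicate 3. Members near 0 turned sign. Mcl1 was -0.049 with library totals alone, -0.016 and -0.015 with the RPKM and a pseudocount of 0.1 and 1, and -0.055 to 0.21 with a library left out. Bcl2l1 was -0.018 with library totals alone and -0.043 to 0.28 with a library left out. Bcl2l11 was -0.095 with library totals alone, -0.053 and -0.042 with the RPKM, and -0.088 to 0.19 with a library left out. Bmf was 0.011 with RLE factors, 0.0010 with no filter, 0.013 with DESeq2, and -0.50 to 0.27 with a library left out. The median of all loci, 0.0041, was itself lowered to -0.11 with library totals alone and to -0.065 and -0.041 with the RPKM, and relative to it the median of the members was 0.097, 0.11 and 0.078, beside 0.10. For the other turns the cause was not tested. Bcl2, Bak1, Bid and Bad stayed above 0 and Bcl2l2 below 0 in every setting.

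Replicate numbers are shared between the genotypes. The deviations of libraries with the same number correlated at -0.081, 0.26 and 0.32. For replicates 2 and 3, each library correlated best with the one of its own number, and for replicate 1 neither did. With 3 libraries per genotype, these values cannot show whether the libraries were paired. With a replicate block 6 loci changed (2 higher, 4 lower), the median of the members was 0.12 and 0 members changed. The replicate block changed no other call.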

Other observations

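Several short loci listed within the spans of members, on the same strand and outside their annotated exons, had few reads but more in OgaVav-Cre libraries. BB166591, within Bcl2l1, had 19, 16 and 29 reads (OgaVav-Cre) against 4, 4 and 5 (wildtype, log2 fold change 2.04, edgeR adjusted p = 0.386). AK050840, within Bcl2l11, had 23, 12 and 18 reads against 2, 7 and 8 (1.41, edgeR adjusted p = 0.485). A630035D09Rik, within Bcl2l1, had 3, 7 and 5 reads against 1, 1 and 0. Within Bcl2, AK156935 had 7, 5 and 7 reads against 3, 2 and 4, and AK037296 had 4, 7 and 2 against 0, 0 and 0. These loci were picked out after their values were seen. In AK047377, AK081910 and AK039914, within Bcl2, AK155575, within Bid, and AK029192, within Bcl2l1, the genotypes overlapped. Among 2295 single-exon loci with names of the AK kind that were tested over the whole table, the OgaVav-Cre libraries were all above wildtype in 3.83% and all below in 14.7%, and the median log2 fold change was -0.26.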
